A study of Mus musculus with 4 samples.

Results

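The 9 genes described here act in the fusion of osteoclasts and in the resorption of bone: *Ocstamp*, *Dcstamp*, *Nfatc1*, *Jdp2*, *Oscar*, *Calcr*, *Acp5*, *Clcn7* and *Slc9b2*. They were taken by name, though with earlier results of these data known, and each had 1 row among the 32285 genes of the feature table. Single-cell RNA-seq of fracture callus had been done in 4 libraries: control_4d and control_7d from vehicle-treated mice, 4 and 7 days post-fracture (dpf), and RA_4d and RA_7d from mice injected with arthritogenic K/BxN serum, at the same times. All mice were 3-month-old wild-type C57BL/6J animals with a fractured tibia. Serum was given intraperitoneally at 0 and 3 dpf and every 5 days after that, so the arthritis was induced by transferred serum and did not arise spontaneously. Each library was a single pool of calluses (4 by the design text of the series, whereas the study's report gives another number), scraped from the periosteal surface, digested with collagenase P and strained, with 10000 cells loaded. There was therefore 1 library per condition, no test between conditions was possible, and condition and library cannot be told apart.

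Osteoclasts arise from cells of the monocyte and macrophage lineage under the cytokines M-CSF and RANKL. RANKL signalling, together with costimulation through receptors paired with ITAM adaptors, raises the transcription factor NFATc1, which switches on the genes for cell fusion and for resorption. The fused, multinucleated cells attach to bone, acidify the sealed space beneath them and secrete proteases, and in a healing fracture they remove cartilage and woven bone.

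On the GRCm38 assembly (mm10, GENCODE M21), *Acp5* lay at chr9:22126727-22135711, *Ocstamp* at chr2:165393760-165400405, *Dcstamp* at chr15:39745930-39760938, *Oscar* at chr7:3609813-3616157 and *Slc9b2* at chr3:135307700-135345387. *Clcn7* lay at chr17:25133391-25162104, *Jdp2* at chr12:85599027-85639878 and *Calcr* at chr6:3685680-3764714. No protein-coding gene overlapped any of the 9. *Acp5*, *Nfatc1* and *Jdp2* were each overlapped by 1 noncoding gene on the opposite strand, and the microRNA genes *Mir489* and *Mir653* lie within *Calcr*.

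The promoter windows of *Acp5*, *Oscar* and *Slc9b2*, a resorption enzyme, a receptor and a transporter of osteoclasts, are shown for orientation, each with 250 bases before and 50 after an annotated RefSeq start (GRCm38.p6), written on the gene's strand. *Acp5* has several annotated starts, and the window at the smallest coordinate is given. Capitals mark matches on either strand to the NFAT core GGAAA, the PU.1 core GAGGAA and the E-box CATGTG.
Acp5, chr9:22130549-22130848, minus strand: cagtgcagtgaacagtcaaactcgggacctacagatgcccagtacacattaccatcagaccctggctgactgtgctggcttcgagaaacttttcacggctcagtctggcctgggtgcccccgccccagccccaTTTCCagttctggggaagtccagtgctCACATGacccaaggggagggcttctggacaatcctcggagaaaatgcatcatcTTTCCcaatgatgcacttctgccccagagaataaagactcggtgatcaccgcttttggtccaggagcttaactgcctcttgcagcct
Oscar, chr7:3616108-3616407, minus strand: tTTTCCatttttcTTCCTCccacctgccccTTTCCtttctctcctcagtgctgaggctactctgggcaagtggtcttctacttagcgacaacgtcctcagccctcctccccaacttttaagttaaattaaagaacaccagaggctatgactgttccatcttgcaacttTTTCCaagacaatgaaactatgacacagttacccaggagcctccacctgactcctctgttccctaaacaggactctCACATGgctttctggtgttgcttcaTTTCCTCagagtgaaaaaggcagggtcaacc
Slc9b2, chr3:135307450-135307749, plus strand: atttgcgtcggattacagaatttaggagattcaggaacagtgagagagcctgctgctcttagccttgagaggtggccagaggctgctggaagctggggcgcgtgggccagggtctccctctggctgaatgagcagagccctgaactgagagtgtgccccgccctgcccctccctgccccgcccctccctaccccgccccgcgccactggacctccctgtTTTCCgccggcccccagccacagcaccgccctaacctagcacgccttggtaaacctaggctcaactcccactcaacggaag
NFAT core matches numbered 2 in the *Acp5* window, 4 in that of *Oscar* and 1 in that of *Slc9b2*, and 61.3% of all 32851 RefSeq promoters hold at least 1. PU.1 core matches numbered 2 in *Oscar*, 1 of them overlapping an NFAT match, and 28.3% of all promoters hold a match. Of the windows shown, CATGTG occurred in those of *Acp5* and *Oscar*, and 14.2% of all promoters hold it. The *Acp5* windows not shown had 1 NFAT core match each and no CATGTG. A *Clcn7* window, also not shown, held 1 CATGTG. The AP-1 motif TGANTCA, which 7.81% of promoters hold, had no match in any window searched. Those windows belonged to 6 members: *Acp5*, *Calcr*, *Oscar*, *Slc9b2*, *Clcn7* and *Jdp2*. These matches are letters only, and 3′ counts do not show which start a transcript used.

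After the limits of the study's methods (4000 to 50000 UMIs, 2000 to 7000 detected genes, at most 8% mitochondrial UMIs), 25479 cells remained, 4110 to 8223 per library, with medians of 16093.5 to 17631.5 UMIs. Libraries shared 5 to 15 cell barcodes per pair. Cells were called myeloid, after neutrophils and lymphoid cells had been set aside, when at least 3 of *Cd68*, *Csf1r*, *Ctss*, *Fcer1g* and *Tyrobp* had 2 or more UMIs. The same rule set mesenchymal cells (*Prrx1*, *Pdgfra*, *Col5a1*, *Fbn1*, *Fstl1*) and endothelial cells (*Cdh5*, *Pecam1*, *Kdr*, *Egfl7*, *Emcn*). Myeloid cells that also met either of these rules were left out as cells of 2 lineages. At 4 dpf 3270 myeloid cells remained in the control and 2146 in the RA library, and at 7 dpf 2630 and 1548. They were split by raw marker UMIs, in order, into Mmp9+Acp5+ cells (3 UMIs of each), Arg1+ cells (5), Mrc1+ cells (5), H2-Ab1+ cells (10) and cells below all cut-offs. Because *Acp5* defines the first of these classes, its level there is a description, while the other 8 members were not used by the rule.

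The Mmp9+Acp5+ class held 81 cells (control_4d), 67 (control_7d), 120 (RA_4d) and 7 (RA_7d), an order kept for every set of 4 values here and below. As shares of the myeloid cells these were 2.48% (95% exact binomial interval 1.97 to 3.07), 2.55% (1.98 to 3.22), 5.59% (4.66 to 6.65) and 0.452% (0.182 to 0.929). RA_4d was thus highest and RA_7d lowest, with overlapping intervals in the controls. The RA share was 2.26 times the control share at 4 dpf (1.69 to 3.03) and 0.178 times at 7 dpf (0.0687 to 0.386). All intervals here and below cover counting error only.

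**Figure D1:**
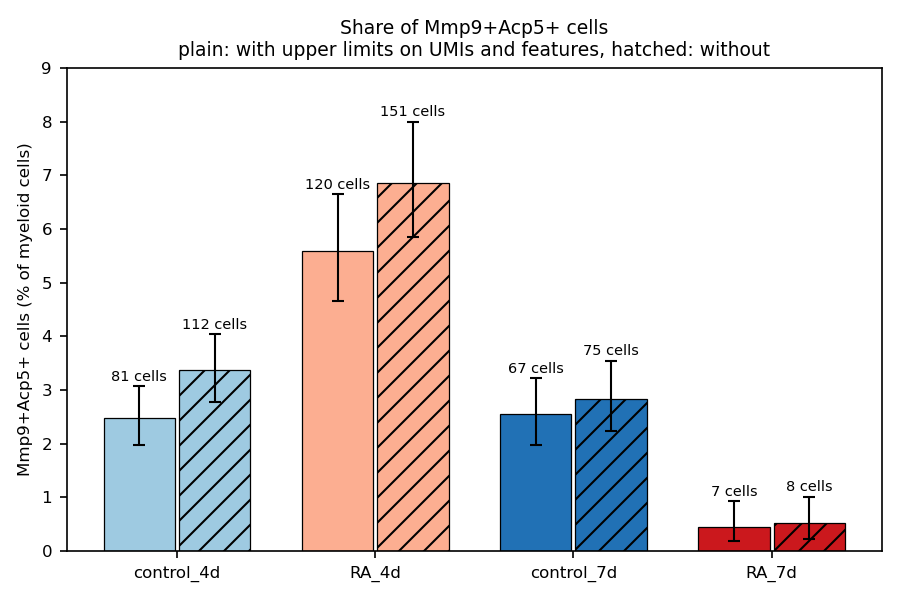
Bars give Mmp9+Acp5+ cells as a percentage of myeloid cells in each library, with exact 95% binomial intervals, plain with and hatched without the upper limits on UMIs and detected genes. RA_4d is highest (5.59% and 6.86%) and RA_7d lowest (0.452% and 0.515%) in both sets.

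These cells were rich in RNA, with medians of 38159, 32521, 34684 and 14835 UMIs per cell. Before the filter, 31, 9, 31 and 1 barcodes that met the rule held over 50000 UMIs, 27.2%, 8.41%, 20.1% and 12.5% of those meeting it, against 0.0720% to 0.946% of the other myeloid barcodes. The upper limit on UMIs therefore removed a larger fraction of this class than of the other myeloid cells, with a smaller fraction in control_7d than in the 4 dpf libraries. Without the upper limits on UMIs and on detected genes the shares were 3.37%, 2.84%, 6.86% and 0.515%. The mitochondrial limit removed 2, 29, 3 and 0 barcodes of the class. A doublet caller, Scrublet, was run on the kept cells and called 0 of the 275 class cells, which allows a called share of up to 1.09%. That limit does not cover doublets that the caller misses.

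Myeloid cells whose lower count of *Mmp9* and *Acp5* was exactly 2 numbered 18, 3, 13 and 7, and cells inside at 3 or 4 numbered 14, 2, 20 and 3. Across the 4 libraries *Ocstamp* was at 0 to 45.2 CPM (UMIs per 1000000 UMIs of the cells summed) in the cells just outside and at 0 to 62.0 in those just inside, while cells with at least 5 of each had 137 to 274. In RA_7d, 3 of the 7 class cells lay at the edge. A further 576, 492, 335 and 277 myeloid cells had at least 3 *Acp5* UMIs with fewer than 3 of *Mmp9*. Kept cells of 2 lineages, which were left out of the class, had at least 3 UMIs of both genes in 0, 5, 1 and 3 cases.

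The identity of the class was checked with 11 osteoclast genes that are not members. *Ctsk*, the protease that degrades bone collagen, stood at 5582, 8437, 4238 and 3556 CPM in the class against 62.7 to 106 in the other myeloid cells. Of the 10 genes tested, 8 were at least 2-fold higher in the class in all 4 libraries: *Ctsk*, *Atp6v0d2* and *Tcirg1* (subunits of the proton pump), *Snx10*, *Car2* (the carbonic anhydrase that supplies protons), *Itgb3*, *Src* and *Ckb*. *Ostm1*, the partner subunit of the *Clcn7* product, and *Plekhm1* were not, and *Siglec15* had too few UMIs. None of 8 genes of upstream signalling (*Tnfrsf11a*, *Csf1r*, *Traf6*, *Mitf*, *Trem2*, *Tyrobp*, *Fcer1g*, *Prdm1*) met that criterion in every library, although *Prdm1* did in the 3 other than RA_7d. The 5 myeloid genes that select these cells summed to 3182 to 5824 CPM in the class and 5217 to 7924 in the other classes. Markers of dendritic cells (*Flt3*, *Zbtb46*, *Ccr7*, *Cd209a*, *Xcr1*) summed to 2.42 to 8.10 CPM, with 2 to 4 of the 5 at 0, and those of monocytes (*Ly6c2*, *Ccr2*, *Plac8*, *Chil3*) to 0 to 19.5. Macrophage markers (*C1qa*, *C1qb*, *C1qc*, *Folr2*, *Lyve1*) summed to 369, 158, 283 and 1555 CPM, highest in RA_7d and with 1 of the 5 at 0 in each library, against 1069 to 8961 in the other classes. In RA_7d a single class cell held 65 *C1qa* and 84 *C1qb* UMIs, and each other class cell had at most 1 of either. Markers of neutrophils summed to 3.77 to 24.3 CPM in the class, those of lymphoid cells to 4.24 to 24.3, of mesenchymal cells to 18.2 to 72.9 and of endothelial cells to 4.24 to 14.8. Cells that met the rules for these lineages had been set aside with the same genes. Low sums of these markers therefore follow from the rule and are no check of identity. Cell-cycle genes (*Mki67*, *Top2a*, *Cdk1*, *Ccnb1*, *Birc5*, *Cenpf*) summed to 339.5, 171, 349.5 and 24.3 CPM.

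*Ocstamp* and *Dcstamp* encode the multipass membrane proteins needed for osteoclast precursors to fuse. *Ocstamp* stood at 128, 271, 132 and 89.1 CPM in the Mmp9+Acp5+ cells, from 370, 575, 535 and 11 UMIs. *Dcstamp* stood at 104, 142, 58.9 and 122 CPM, from 301, 302, 239 and 15 UMIs. Control_7d was highest for both genes, and RA_4d lowest for *Dcstamp*. Against the other myeloid cells of the same library *Ocstamp* was 22.4-, 36.8-, 13.3- and 18.4-fold higher and *Dcstamp* 14.5-, 14.4-, 13.6- and 12.8-fold higher.

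Outside that class the fusion genes were not evenly spread. *Dcstamp* came next in H2-Ab1+ cells, at 27.9, 35.2, 15.9 and 23.6 CPM, and stood at 0.992 to 4.68 in Arg1+ and Mrc1+ cells. *Ocstamp* had 12.8 to 23.1 CPM in H2-Ab1+ cells and 7.77 to 16.5 in cells below all cut-offs, but 0 to 2.59 in Arg1+ and Mrc1+ cells. The H2-Ab1+ class also held the dendritic markers, at 226 to 466 CPM summed, whose part in these levels was not tested. A UMI of *Ocstamp* was seen in 70.4%, 88.1%, 71.7% and 28.6% of class cells, against 0.0857% to 0.428% of endothelial cells, a type not expected to express it, whose median depths were 19470.0, 13640.5, 20227 and 13600.0 UMIs. After each cell was thinned to 4000 UMIs, so that depth was equal, the class shares were 34.6%, 53.7%, 32.5% and 14.3%.

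Both fusion genes were seen in the same cell in 41 of 81, 50 of 67, 42 of 120 and 1 of 7 class cells, which is 50.6% (39.3 to 61.9), 74.6% (62.5 to 84.5), 35.0% (26.5 to 44.2) and 14.3% (0.361 to 57.9). In H2-Ab1+ cells the share was 1.30% to 3.42%. Cells with *Ocstamp* but not *Dcstamp* numbered 16, 9, 44 and 1, and the reverse 4, 4, 3 and 3, so in the first 3 libraries a cell with a single fusion gene more often showed *Ocstamp*.

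*Nfatc1* encodes the transcription factor at the centre of osteoclast differentiation. Its level in the class was 529, 644, 591 and 203 CPM, from 1532, 1367, 2396 and 25 UMIs. The first 3 libraries lay close together and RA_7d well below. The gene was also present elsewhere, at 65.9 to 142 CPM in cells below all cut-offs, 75.7 to 88.4 in mesenchymal, 81.1 to 124 in endothelial and 121 to 189 in lymphoid cells, where NFAT factors act in antigen-receptor signalling. The class exceeded the other myeloid cells by 8.44-, 10.2-, 7.29- and 4.39-fold.

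*Jdp2* encodes an AP-1 family protein that also promotes osteoclast differentiation. The class had 742, 659.6, 805 and 170.1 CPM, again with RA_7d lowest. H2-Ab1+ cells had 129, 96.2, 240.0 and 139 CPM and cells below all cut-offs 168, 123, 246.5 and 45.5, so the class exceeded the other myeloid cells by only 8.60-, 8.52-, 5.05- and 2.16-fold. In each of these 3 classes RA_4d was the highest of the 4 libraries. Among related genes, *Nfatc2* was at 0 to 4.44 CPM in the class against 33.2 to 42.4 in the other myeloid cells, and *Atf3* at 22.4, 13.2, 14.0 and 299.7 against 243 to 399. Among 9 relatives of the members (*Nfatc2*, *Nfatc3*, *Atf3*, *Batf*, *Clcn3*, *Clcn4*, *Clcn5*, *Clcn6* and *Slc9b1*), none was at least 2-fold higher in the class in all 4 libraries, and *Slc9b1* was in the 3 other than RA_7d.

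*Oscar* encodes the collagen-binding receptor that costimulates osteoclast formation. It was nearly confined to the class among myeloid cells, with 34, 113, 49 and 1 UMIs there and 11, 5, 9 and 0 in the other myeloid cells together. As levels these were 11.7, 53.2, 12.1 and 8.10 CPM against 0.218, 0.160, 0.277 and 0, and control_7d stood above all others. Folds were 53.9 (26.7 to 118), 333 (139 to 1045) and 43.7 (21.2 to 101) in control_4d, control_7d and RA_4d. A single RA_4d cell held 27 of the 49 UMIs, 55.1%. In endothelial cells *Oscar* stood at 0.353 to 0.803 CPM, so the other myeloid classes were at or near background.

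*Calcr*, the calcitonin receptor and a classical marker of mature osteoclasts, had few UMIs in the class. They numbered 1, 9, 5 and 0 there, and 6 of the 9 in control_7d came from a single cell. In RA_7d the 123446 UMIs of the class allow a level of up to 24.3 CPM at a count of 0. The gene's UMIs lay elsewhere, since 95.3%, 83.9%, 87.6% and 85.4% of them were in the 168, 218, 115 and 253 cells with at least 2 UMIs of *Pax7*, the marker of muscle stem cells (satellite cells), a cut chosen after the values had been seen. *Calcr* stood at 74.4, 74.2, 74.0 and 211 CPM in these cells. These levels were alike in the first 3 libraries, and RA_7d was 2.84-fold above control_7d (2.47 to 3.29). A *Calcr* UMI was seen in 32.7%, 24.3%, 42.6% and 54.5% of the *Pax7* cells. Of these cells 68, 98, 65 and 176 met no lineage rule, so the make-up of the set differed between libraries. Its part in the levels was not tested.

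*Acp5* encodes tartrate-resistant acid phosphatase, the enzyme by which osteoclasts are stained. The class that it helps to define had 3164, 5026, 2565 and 1304 CPM, with medians of 81, 143, 52.5 and 14 UMIs per cell. Cells below all cut-offs had 311, 274, 188 and 237 CPM and the remaining myeloid classes 63.2 to 219.5, so *Acp5* was present throughout the myeloid cells. Endothelial cells had 1.41 to 3.10.

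Mesenchymal cells had 9.97 to 34.6 CPM of *Acp5*, highest in RA_7d and lowest in RA_4d, with a UMI in 31.7%, 31.1%, 23.1% and 42.0% of cells against 5.95%, 4.22%, 3.21% and 2.06% of endothelial cells. After thinning to 4000 UMIs these were 5.68%, 6.95%, 3.49% and 10.7% against 0.428% to 2.11%. The mesenchymal level was 1.82-fold higher in RA_7d than in control_7d (1.71 to 1.93). It was the only 1 called of the 8 members tested there, where 1396 of 17204 genes were higher and 1444 lower. For each 100 *Acp5* UMIs, the proton-pump gene *Atp6v0d2* had 19.8 to 32.3 UMIs in the Mmp9+Acp5+ cells and 3.73 to 5.71 in mesenchymal cells, so these cell types did not hold these transcripts in the same ratio. Mesenchymal cells of RA_7d held 51.0% of that library's *Acp5* UMIs and were 50.3% of its kept cells.

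*Clcn7* encodes the chloride-proton exchanger of lysosomes and the ruffled border, and it set the class apart least. Its level there was 58.0, 128, 64.8 and 113 CPM, the last from 14 UMIs. Mrc1+ cells had 50.5 to 58.1 CPM, Arg1+ cells 45.7 to 67.4 and H2-Ab1+ cells 20.9 to 30.1. Only the class of control_7d stood clear of the Mrc1+ and Arg1+ cells, and against all other myeloid cells the class was 1.26-, 2.60-, 1.41- and 2.38-fold higher.

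*Slc9b2* encodes a sodium-proton exchanger (NHA2) that is strongly induced in osteoclasts. It stood at 314, 416, 253 and 105 CPM in the class, the last from 13 UMIs that all lay in 1 cell. Cells below all cut-offs had 13.5 to 42.5 CPM and the other myeloid classes 0.361 to 20.7. The class was 27.1-, 44.5-, 21.2- and 35.0-fold above the other myeloid cells. Its close relative *Slc9b1* had 4.83, 7.53, 7.64 and 0 CPM in the class against 0.338 to 0.732 in the other myeloid cells.

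**Figure D2:**
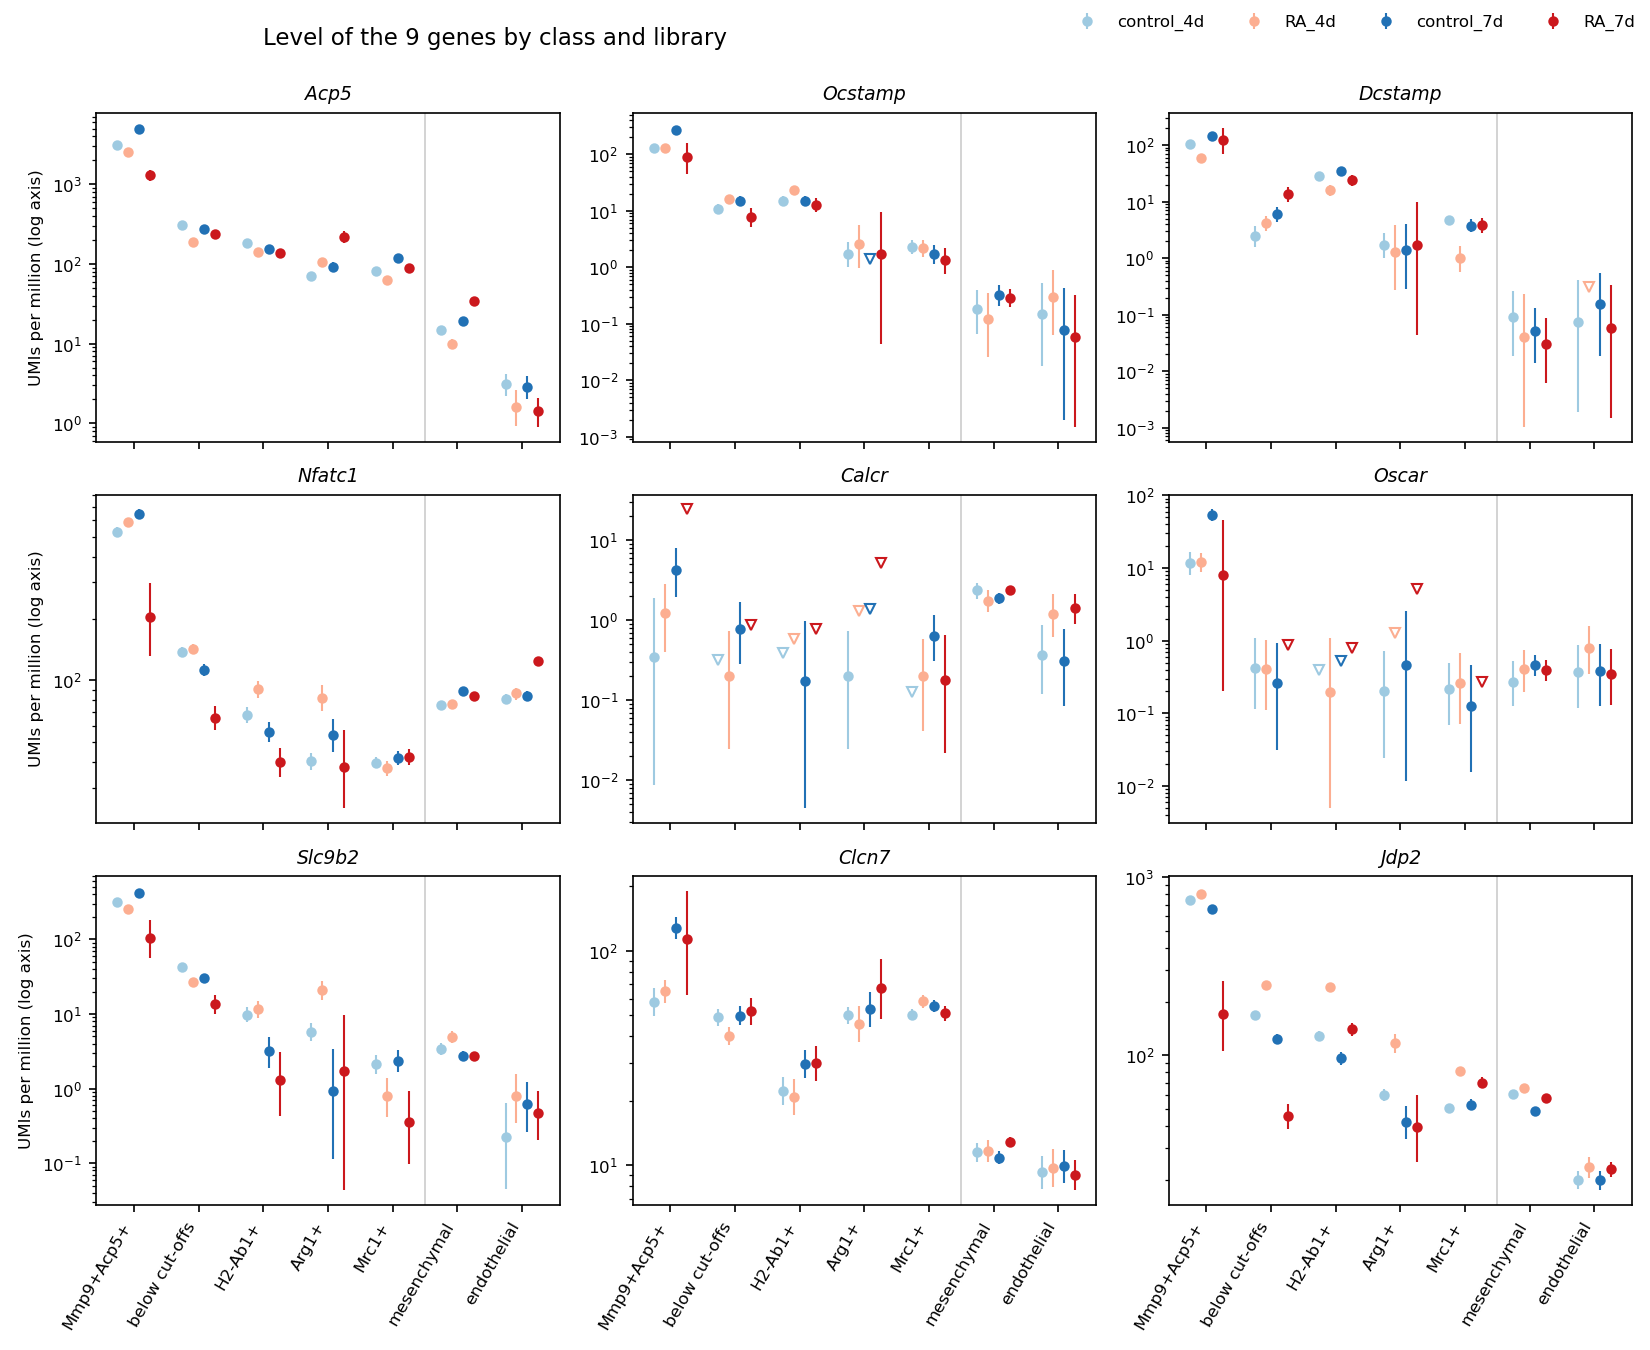
Points give the level of each gene (CPM, log axis) in the 5 myeloid classes and in mesenchymal and endothelial cells, by library, with exact 95% Poisson intervals. Open triangles mark the limit that 0 UMIs allow. Summed over libraries, each gene is highest in Mmp9+Acp5+ cells among the myeloid classes, by a wide margin for *Oscar* and *Slc9b2* and a narrow one for *Clcn7*. *Acp5* is used by the class rule.

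Of the 8 members other than *Acp5*, 5 were at least 2-fold higher in the class than in the other myeloid cells in all 4 libraries (*Ocstamp*, *Dcstamp*, *Nfatc1*, *Slc9b2* and *Jdp2*), where 2.79% of the 13928 genes tested were. That count did not require the interval to clear 2-fold. In RA_7d the fold of *Jdp2* was 2.16 (1.34 to 3.32). The median of the 7 class cells there had 0 UMIs of *Ocstamp*, *Slc9b2* and *Jdp2*. *Oscar* and *Calcr* had too few UMIs to be tested in every library, and *Clcn7* passed in control_7d and RA_7d. Without RA_7d, *Oscar* made 6, against 5.46% of 14513 genes. The members' median log2 fold was 3.85, 3.60, 3.37 and 2.90 in the 4 libraries, and that of all genes lay between -0.10 and 0.22. Summed over the 4 libraries, each of the 8 members other than *Acp5* had its highest myeloid level in this class.

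After thinning, the median class cell showed 3, 4, 3 and 1 of the 8 members other than *Acp5*, and 35.8%, 59.7%, 36.7% and 28.6% of class cells showed at least 4. In every other myeloid class at most 1.15% of cells did. The genes whose level over the 19 class-by-library sums with at least 20 cells was most like the mean of the 8 members were *Mdh1*, *Uqcrc2*, *Nudt22*, *Cox7c*, *Plxnd1*, *Uqcr10*, *Ndufb10*, *Uqcrfs1*, *Coq8a* and *Cox4i1*, with Pearson r of 0.974 to 0.986. *Mdh1* codes for malate dehydrogenase, and *Uqcrc2*, *Uqcr10*, *Uqcrfs1*, *Ndufb10*, *Cox7c* and *Cox4i1* for subunits of the mitochondrial respiratory chain. *Mdh1* had 294 to 423 CPM in the class and at most 120.1 elsewhere. These correlations are a description over sums that share libraries, and the RA_7d class is not among them. The 19 sums include Mmp9+Acp5+ sums, so r also reflects the contrast between that class and the others. For the listed genes r was not recomputed over the 16 sums outside the class. Between members, leaving the class out lowered r for every pair. It went from 0.961 to 0.901 for *Nfatc1* and *Slc9b2*, and from 0.698 to 0.0949 for *Dcstamp* and *Nfatc1*.

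Over all myeloid cells at 4 dpf, a ratio was called when it passed 1.5-fold, its interval left out 1 and the gene had at least 50 UMIs. *Ocstamp* stood at 23.4 CPM in RA_4d and 12.3 in control_4d, a ratio of 1.90 (1.72 to 2.11). *Jdp2* stood at 231 and 122 CPM, a ratio of 1.90 (1.84 to 1.96). *Nfatc1* stood at 137 and 87.9 CPM, a ratio of 1.56 (1.503 to 1.63). With *Oscar* (58 against 45 UMIs, 1.88, 1.25 to 2.84), 4 of the 8 members tested were higher in RA callus and none lower, where 7.33% of 13632 genes were called in either direction. The members' median log2 ratio was 0.55, and that of all genes tested 0.03. The ratios of *Acp5*, *Slc9b2*, *Clcn7* and *Dcstamp* were 1.28, 1.38, 1.03 and 0.835. The *Oscar* call was lost when the cell with the most *Oscar* UMIs in each library was left out, which gave 1.26 (0.752 to 2.09). The *Nfatc1* call was lost without the upper limits on UMIs and genes (1.45) and when each cell had equal weight (1.48). Of the other osteoclast genes, *Src* (2.07) and *Car2* (1.76) were higher and *Itgb3* (0.592) lower, of 10 tested.

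At 7 dpf no member was higher in RA callus. *Acp5* stood at 138 CPM in RA_7d and 471 in control_7d, a ratio of 0.293 (0.281 to 0.305). *Ocstamp* stood at 5.40 and 24.1 CPM (0.224, 0.181 to 0.276), and *Slc9b2* at 3.67 and 35.2 (0.104, 0.0807 to 0.133). *Nfatc1* (0.473), *Dcstamp* (0.559) and *Oscar* (1 UMI against 118, 0.0148, 0.000373 to 0.0844) were lower as well. In all, 6 of 8 members were lower, where 11.4% of 12979 genes were called in either direction, and the members' median log2 ratio was -1.43 against -0.01 over all genes. *Jdp2* (0.692, 0.651 to 0.735) and *Clcn7* (0.885, 0.817 to 0.959) were not called. Of 10 other osteoclast genes, 5 were lower, with *Ctsk* at 0.154, *Car2* at 0.135, *Itgb3* at 0.137, *Atp6v0d2* at 0.373 and *Src* at 0.498. Cells with many UMIs weigh more in these sums, and the ratios were closer to 1 when every cell was thinned to 4000 UMIs, with *Acp5* at 0.504, *Ocstamp* at 0.428, *Slc9b2* at 0.196, *Nfatc1* at 0.717 and *Dcstamp* at 0.835, and only the first 3 were then called, with *Oscar* too sparse to be tested.

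**Figure D3:**
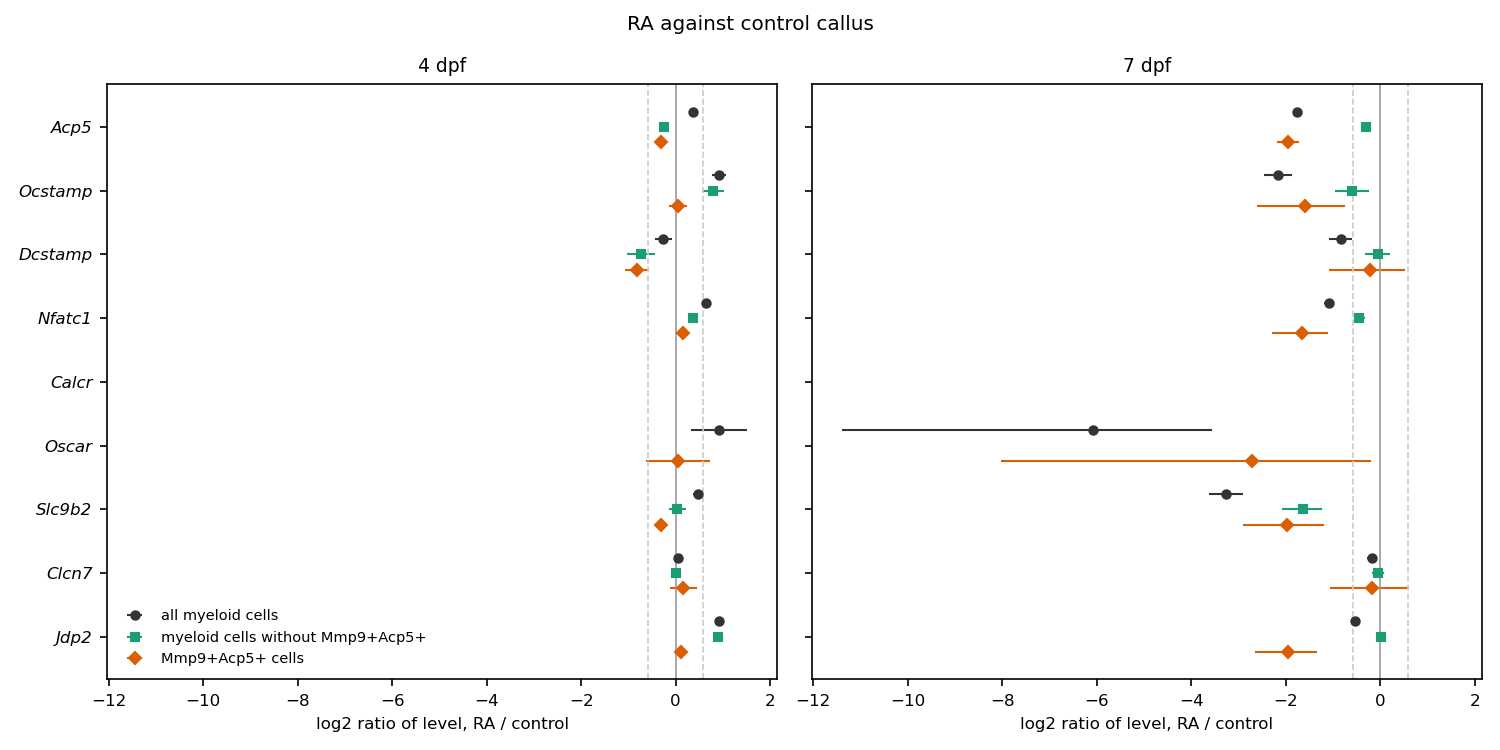
Points give the log2 ratio of the level in RA to that in control callus for each gene, at 4 dpf (left) and 7 dpf (right), in all myeloid cells, in myeloid cells without the Mmp9+Acp5+ class and within that class, with exact 95% intervals and dashed lines at 1.5-fold. At 7 dpf the ratios over all myeloid cells lie left of those in the myeloid cells without the class for *Acp5*, *Ocstamp*, *Dcstamp*, *Nfatc1*, *Slc9b2* and *Jdp2*. The same holds for *Clcn7*, with overlapping intervals.

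With the Mmp9+Acp5+ cells left out, fewer members passed at 7 dpf. *Slc9b2* (3.01 against 9.36 CPM, 0.321, 0.238 to 0.428) and *Ocstamp* (4.86 against 7.35 CPM, 0.661, 0.513 to 0.845) were lower. That is 2 of 7 members tested, a set that holds *Acp5* although the rule uses it, against 9.82% of 12866 genes. Median log2 ratios were -0.31 over the members and -0.01 over all genes, and *Ocstamp* was not called without the upper limits. *Dcstamp* had 0.962 (0.796 to 1.16), *Acp5* 0.805 (0.767 to 0.844) and *Jdp2* 1.01 (0.951 to 1.08). These pooled ratios hid differences between classes. In cells below all cut-offs *Jdp2* (0.369), *Slc9b2* (0.443), *Ocstamp* (0.514) and *Nfatc1* (0.586) were lower and *Dcstamp* (2.27) higher. That is 4 lower and 1 higher of 7 members tested, where 625 of 9840 genes were lower and 453 higher. In Arg1+ cells *Acp5* was higher (2.40), 1 of 4, where 310 of 6282 genes were higher and 270 lower. No member was called in Mrc1+ cells, of 5 tested, where 571 of 11441 genes were higher and 432 lower. Their ratios ran from 0.751 for *Acp5* to 1.33 for *Jdp2*, and *Slc9b2* (4 against 37 UMIs) had too few to be tested. In H2-Ab1+ cells no member was called either, of 6 tested, where 362 of 9237 genes were higher and 422 lower. There the ratios ran from 0.670 for *Dcstamp* to 1.45 for *Jdp2*. Of the UMIs of *Acp5* in a library, a gene that the rule uses, the class held 53.1%, 58.3%, 70.1% and 2.37%. Of those of *Ocstamp* it held 54.0%, 66.2%, 60.3% and 7.14%. The class made up at most 2.92% of the kept cells.

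**Figure D4:**
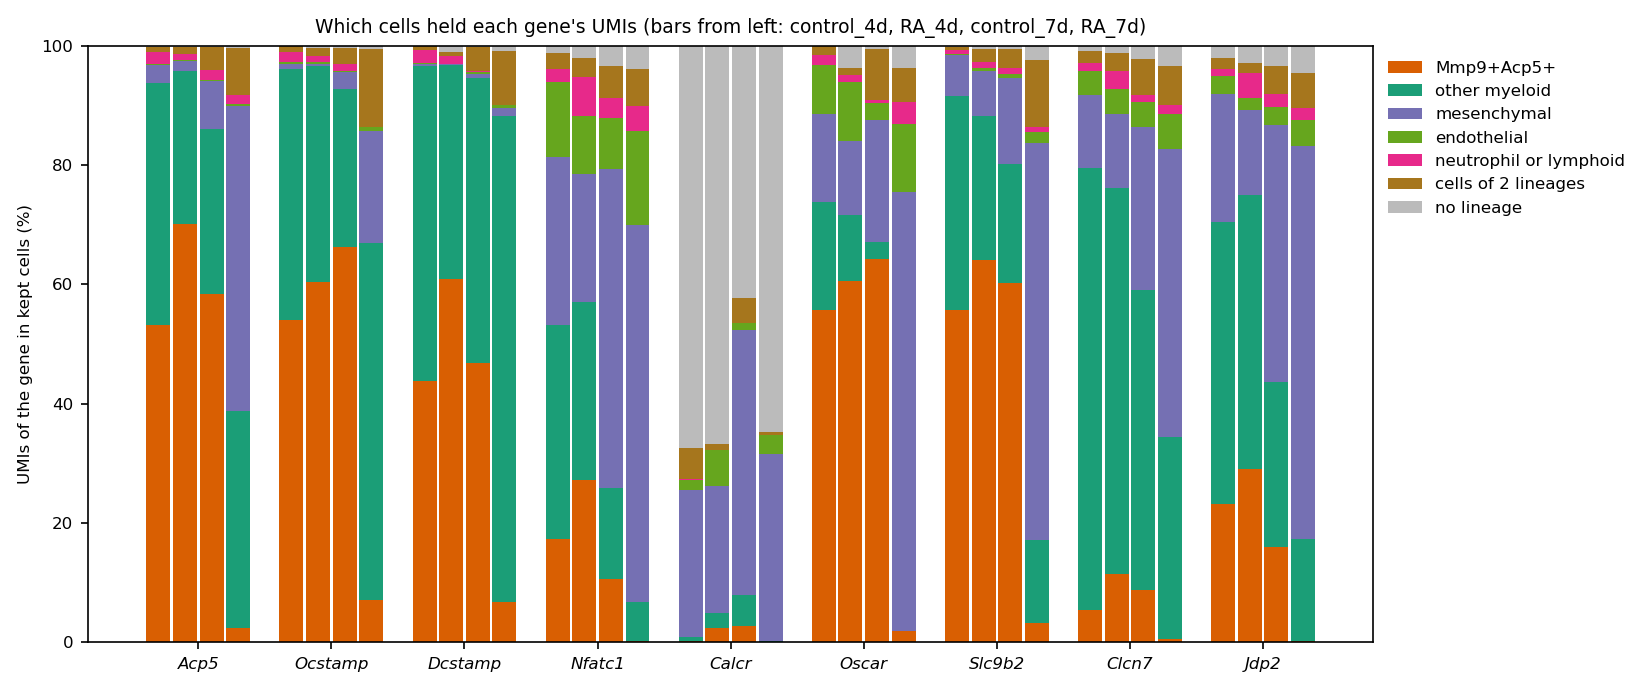
Stacked bars give the percentage of each gene's UMIs held by each cell class, with 4 bars per gene in the order control_4d, RA_4d, control_7d, RA_7d. Mmp9+Acp5+ cells hold 43.8% to 70.1% of *Acp5*, *Ocstamp*, *Dcstamp*, *Oscar* and *Slc9b2* UMIs in the first 3 bars and at most 7.14% in RA_7d. *Acp5* is used by the class rule.

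At 4 dpf, by contrast, *Jdp2* and *Ocstamp* remained called without the class, at 159 against 86.2 CPM (1.85, 1.78 to 1.93) and 9.89 against 5.70 CPM (1.74, 1.48 to 2.04), while *Dcstamp* was lower, at 4.33 against 7.18 CPM (0.603, 0.493 to 0.734). That is 3 of 7 members, against 6.71% of 13481 genes, with medians of 0.04 and 0.03 on the log2 scale. The members tested here and in the classes below hold *Acp5*, although the rule that sets the classes uses it. Class by class, *Jdp2* was higher in RA_4d in Arg1+ (1.95), Mrc1+ (1.61) and H2-Ab1+ cells (1.87). In Arg1+ cells *Slc9b2* (3.60, 2.40 to 5.38) and *Nfatc1* (2.03) were higher as well, 3 of 5 members tested, where 7.97% of genes were called. In Mrc1+ cells *Dcstamp* (0.212) and *Slc9b2* (0.373) were lower, so that 3 of 7 members were called, against 5.89% of genes. In H2-Ab1+ cells *Ocstamp* was higher (1.55, 1.19 to 2.02) and *Dcstamp* lower (0.570, 0.436 to 0.739), 3 of 7 with *Jdp2*, against 6.28% of genes. In cells below all cut-offs *Ocstamp* was higher (1.52) and *Acp5* (0.604) and *Slc9b2* (0.631) lower, 3 of 7 counting *Acp5*, against 8.80% of genes. The direction for *Slc9b2* thus differed between classes, a difference that was not tested.

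Within the Mmp9+Acp5+ cells at 4 dpf, RA and control were close. *Dcstamp* was lower in RA_4d, at 58.9 against 104 CPM (0.567, 0.477 to 0.675), the only 1 called of the 7 members tested other than *Acp5*, where 5.92% of 8397 genes were. The other ratios ran from 0.805 for *Slc9b2* to 1.12 for *Clcn7*, and the median log2 ratio was 0.05 over the 7 members and 0.03 over all genes. The *Dcstamp* call was lost without the upper limits (0.693, 0.611 to 0.785) and after thinning (0.712, 0.402 to 1.26). For the thinned ratio the class was set anew on the thinned counts with lower cut-offs, so its cells differ. *Itgb3*, the osteoclast integrin, was lower as well (16.5 against 54.2 CPM), as was *Ckb* (466 against 1150).

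At 7 dpf the 7 class cells of RA_7d had lower levels of 5 of the 7 members tested other than *Acp5*: *Ocstamp* (0.329), *Nfatc1* (0.315), *Oscar* (0.152, 0.00382 to 0.866, from 1 UMI), *Slc9b2* (0.253) and *Jdp2* (0.258), where 19.0% of 5348 genes were called. The median log2 ratio of these 7 members was -1.67, and that of all genes -0.01. *Acp5*, which the rule uses, had a ratio of 0.259. Of the 10 other osteoclast genes tested, 7 were lower and 0 higher. Of the 5 macrophage markers, 3 could be tested and all 3 were higher. For *C1qa* and *C1qb* this rested on 1 cell, which held 65 and 84 UMIs. Each other class cell of RA_7d had 0 of *C1qa* and at most 1 of *C1qb*. Of these cells 3 of 7 lay at the edge of the rule, against 2 of 67 in control_7d, and among the 4 and 65 cells with at least 5 UMIs of both *Mmp9* and *Acp5*, a limit chosen after the data had been seen, the ratios were 0.501 for *Ocstamp*, 0.442 for *Nfatc1*, 0.231 for *Oscar*, 0.383 for *Slc9b2* and 0.401 for *Jdp2*. Over all 7 class cells *Dcstamp* (0.855, 0.472 to 1.43) and *Clcn7* (0.886, 0.478 to 1.51) were not called. Among the cells with at least 5 UMIs of both genes their ratios were 0.863 and 0.770. These 7 cells were unlike each other. The deepest, with 36650 UMIs, showed 8 of the 9 members, with 68 *Acp5*, 7 *Ocstamp*, 5 *Dcstamp*, 8 *Nfatc1*, 13 *Slc9b2* and 14 *Jdp2* UMIs, and 221 of *Ctsk*. A second, with 12711 UMIs, had 45 *Acp5*, 14 *Nfatc1*, 7 *Jdp2* and 152 *Ctsk* UMIs, with no *Dcstamp*. Another, with 14835 UMIs, had 3 *Acp5* and 3 *Mmp9* UMIs, none of *Ctsk*, and 84 of the macrophage gene *C1qb*. The other 4 had 5 to 19 *Acp5* and 5 to 42 *Ctsk* UMIs, with 1 cell of them showing 36 UMIs of *Trem2*.

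In control callus the levels in the class differed between 4 and 7 dpf. *Oscar* was 4.54-fold higher at 7 dpf (3.07 to 6.87), *Clcn7* 2.21-fold (1.82 to 2.69) and *Ocstamp* 2.12-fold (1.86 to 2.42), 3 of the 7 members tested other than *Acp5*, with none lower, where 11.2% of 7588 genes were called in either direction. The median log2 ratio was 0.45 over these 7 members and -0.06 over all genes. *Dcstamp* (1.37), *Slc9b2* (1.33), *Nfatc1* (1.22) and *Jdp2* (0.889) were not called. Among other osteoclast genes, *Itgb3* (1.90), *Snx10* (1.86), *Plekhm1* (1.62), *Ckb* (1.53) and *Ctsk* (1.51) were higher, 5 of 10. All 6 cell-cycle genes were lower. *Acp5*, which the class rule uses, was 1.59-fold higher (1.54 to 1.63), and 1.43-fold when *Ctsk* took its place in the rule.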

How the data were processed

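Single-cell RNA-seq counts of 4 fracture callus libraries were analysed. The authors deposited UMI counts per gene and cell barcode, made with Cell Ranger 7.0.1 on mm10 per the labels. Whether intronic reads were counted is not given in the sources used here. The filter on cells took its limits from the study's methods, and 0 columns were left unmapped. Classes were set by raw marker UMIs as described above, UMIs were summed per class and library, and levels are CPM of that sum with exact Poisson 95% intervals. Shares have exact Clopper-Pearson intervals and ratios exact conditional intervals, and no p-value was computed because each group was 1 library. A class fold needed at least 10 UMIs and a ratio between conditions at least 50. A count of 0 was read as up to 3 counts. Cells were also thinned to 4000 UMIs. Shares of cells after thinning kept the original classes, while the thinned alternatives for ratios set the classes anew with lower cut-offs. The named genes were the 9 members, the genes of the marker and pathway lists, and the 10 genes most like the members by Pearson r of log2(CPM + 1). The members and lists were chosen with earlier results of these data known. The results of 1 list are not reported here. Python 3.11.15, numpy 2.4.6, scipy 1.17.1, pandas 2.3.3 and matplotlib 3.10.9 were used, with scanpy 1.11.5 for Scrublet and edgeR 4.0.16 for an alternative TMM scaling, and the ratios were tested on simulated data.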

Additional observations from a re-analysis of the deposited data

Results flagged for a closer look

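Several results went in opposite directions at 4 and 7 dpf, and the difference between the times was not tested, since each is a single pair of libraries. The share of Mmp9+Acp5+ cells among myeloid cells had an RA to control ratio of 2.26 at 4 dpf and 0.178 at 7 dpf. Over all myeloid cells the ratios at these times were 1.90 and 0.224 for *Ocstamp*, 1.56 and 0.473 for *Nfatc1*, and 1.88 and 0.0148 for *Oscar*. The *Oscar* ratio at 4 dpf fell to 1.26 without the cell with the most UMIs in each library.

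Barcodes outside the kept cells also met the class rule. Those with more than 50000 UMIs numbered 31 in both 4 dpf libraries, 9 in control_7d and 1 in RA_7d.

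*Calcr* had its signal outside the myeloid cells. In cells with at least 2 *Pax7* UMIs it stood at 74.4 CPM (control) and 74.0 CPM (RA) at 4 dpf, and at 74.2 and 211 CPM at 7 dpf.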

How the results depend on the processing

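The RA to control ratio of the class share kept its direction under all 9 alternatives, at 1.97 to 2.31 for 4 dpf and 0.0975 to 0.340 for 7 dpf. Of 8 members tested over all myeloid cells, 3 or 4 passed 1.5-fold at 4 dpf. At 7 dpf 4 to 7 passed, except that with cells thinned to 4000 UMIs 3 did, where *Oscar* had too few UMIs left to be tested and the cause for the others was not tested. Within the Mmp9+Acp5+ cells at 7 dpf 5 to 7 passed, counting *Acp5*, and 4 to 6 members were at least 2-fold higher in the class in every library. When the class order changed, 57 of 180 levels left their interval, and 29 of 180 when a cell counted in every class it met. Neither alternative alters the Mmp9+Acp5+ cells or the cells below all cut-offs, so the levels of those classes could not move. Each of the 9 members, with *Acp5* used by the rule, was still highest in the Mmp9+Acp5+ class. Ratios were rerun for all myeloid cells and Mmp9+Acp5+ cells at both times, and for myeloid cells without the class at 7 dpf. The ratio of 7 to 4 dpf within the control class was rerun as well. None of the called ratios among these reversed, where a member needed at least 50 UMIs to be compared. Called ratios in the other classes, in myeloid cells without the class at 4 dpf, in mesenchymal cells and in *Pax7* cells were not rerun. Ratios that were not called could change side. Within the Mmp9+Acp5+ cells at 4 dpf, the RA to control ratio of *Oscar* was 1.03 (0.651 to 1.64). It became 0.624 (0.336 to 1.15) without the cell with the most *Oscar* UMIs in each library. Leaving out RA_7d, or the cell with the most UMIs of a gene, was chosen after seeing the data. No paired analysis was possible because each group is 1 library, and no replicate could be left out. Depth limits *Calcr* and *Oscar*, and the RA_7d class rests on 7 cells.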
